A study of Mus musculus with 9 samples.

Results

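The genes described here are 40 mouse genes of glucose use, out of 53379 mouse genes that were counted. They were listed by name from textbook pathways, with earlier results of these data known. They comprise 2 glucose transporters, the enzymes of glycolysis from hexokinase to pyruvate kinase, the makers and breakers of fructose 2,6-bisphosphate, lactate dehydrogenase with 2 lactate transporters, pyruvate dehydrogenase with 3 of its kinases, the pentose phosphate pathway and 3 alpha-arrestins of the Txnip family. Of the 40 genes, 38 passed the filter on low counts and were tested. Pdk2 (0 to 0.107 CPM, that is counts scaled to a common library total, in any library) and Arrdc4 (0 counts in all 9 libraries) did not pass. The filter was applied without regard to direction, yet a gene can pass it through 1 group alone.

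RNA was measured in a mouse line of T-ALL, an acute leukemia of T cell precursors, that carries EμSRα-tTA and tet-O-MYC, so that a human MYC transgene is transcribed until doxycycline blocks the tTA activator. Cells of all groups carried both transgenes, and the study derived the line from tumors of FVB/N mice. The 3 groups of 3 libraries each were harvested 48 h after mock treatment (MYC on), after 20 pg/mL doxycycline (MYC intermediate) and after 500 pg/mL doxycycline (MYC off). The Eμ enhancer and SRα promoter drive tTA in lymphoid cells. Neither the labels nor the methods give a doxycycline-treated line without the tet-O-MYC transgene among these libraries. Doxycycline and the loss of MYC therefore cannot be told apart.

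The transgene itself, hMYC, had 1340, 1190.3 and 1249.9 CPM in the MYC on libraries, 428, 414 and 383 CPM in the MYC intermediate libraries and 4.08, 4.01 and 3.26 CPM in the MYC off libraries. Library totals ran from 18705516 to 39678799 counts. Of 12 T cell marker genes, 10 were called higher in MYC off cells than in MYC on cells and none lower, beside 27.5% and 27.4% of all genes tested, and their summed level was 14361 to 14865 CPM in MYC off cells and 8743 to 8986 CPM in MYC on cells. The summed markers of B cells, NK cells, red cells and platelets, and stromal, endothelial and epithelial cells reached at most 1.48 CPM in any library. The 7 myeloid markers summed to 40.6 to 43.6 CPM in MYC off cells and 26.6 to 30.9 CPM in MYC on cells, with Lyz2, Adgre1 and Cd14 at 0 counts in all libraries. Their 2 tested members moved in opposite directions, Itgam averaging 22.1 CPM in MYC off cells and 3.88 CPM in MYC on cells (log2 fold change 2.46, called higher) and Csf1r 19.5 CPM in MYC off cells and 24.8 CPM in MYC on cells (log2 fold change -0.38, called lower), and the part of these markers in the results was not tested. Every level is relative to the library total, so that a change per cell and a change in total RNA cannot be told apart.

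Glycolysis splits glucose into pyruvate in the cytosol, and proliferating lymphoblasts turn much of that pyruvate into lactate, which leaves the cell through proton-coupled transporters. The pentose phosphate pathway branches off at glucose 6-phosphate; its oxidative arm yields NADPH and its non-oxidative arm shuttles sugars between ribose 5-phosphate and glycolysis. MYC is a transcription factor that binds E-boxes with its partner MAX, and many glycolytic genes are known MYC targets. MondoA and ChREBP, which partner with MLX, bind related E-boxes and activate Txnip and Arrdc4 when glucose phosphates accumulate.

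In build mm10 (GENCODE M21), the genes on which the results mainly turn are Hk2 at chr6:82725025-82774454 (minus strand), Eno3 at chr11:70657202-70662513 (plus strand), Ldha at chr7:46841475-46855627 (plus strand), Ldhb at chr6:142490249-142507957 (minus strand), Tkt at chr14:30548359-30574720 (plus strand) and Txnip at chr3:96557957-96561883 (plus strand).

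Stretches before the transcription start of 3 genes are shown because these genes are among those that changed most and because they hold the boxes that these factors are known to bind. Sequences are RefSeq's for build GRCm38.p6, 5′ to 3′ on the strand of the gene. Capitals mark the box CACGTG in Ldha and Slc16a1. In Txnip they mark a pair of boxes of the form CACGNG with 5 bases between them, the form of a carbohydrate response element.
Ldha (chr7:46845629-46845791, plus strand): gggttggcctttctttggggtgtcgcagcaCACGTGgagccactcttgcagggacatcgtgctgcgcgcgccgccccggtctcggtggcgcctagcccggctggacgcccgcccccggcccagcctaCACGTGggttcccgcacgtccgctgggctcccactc
Slc16a1 (chr3:104638434-104638499, plus strand): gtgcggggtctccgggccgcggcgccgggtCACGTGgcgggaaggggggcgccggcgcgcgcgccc
Txnip (chr3:96557842-96557918, plus strand): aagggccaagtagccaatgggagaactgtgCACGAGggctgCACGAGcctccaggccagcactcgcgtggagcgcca

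The boxes of Ldha begin 145 and 48 bases before 1 of its annotated starts, that of Slc16a1 begins 200 bases before its start, and the pair of Txnip begins 85 bases before its start. CACGTG reads the same on both strands and was searched in windows from 250 bases before to 50 bases after each start. Windows were available for 39 of the 40 genes, and 7 of the 39 (17.9%) held the box in at least 1 window, beside 8.09% of all 27025 genes in the table. A gene with several starts has more windows that can hold the box, and the number of windows was not matched. The 27025 genes also include genes that were not tested here. Of genes with a window, the box was in 4 of the 22 called lower in MYC off cells than in MYC on cells (Ldha, Slc16a1, Pfkfb3 and Pfkm), in 0 of the 5 called higher and in 1 of the 10 not called (Pfkfb2). The other holders, Pdk2 and Arrdc4, were not tested. The pair of CACGNG boxes, searched on both strands and including CACGTG as 1 of its forms, was found in 1 of the 39 genes, Txnip, and in 26 genes of the whole table (0.0962%). A match is a description of the letters and no measurement of binding.

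With MYC off, most of the pathway fell and a few members rose. Between MYC off and MYC on, 23 of the 38 tested genes were lower and 5 were higher at an adjusted p under 0.01 (quasi-likelihood F test of edgeR with Benjamini-Hochberg adjustment over all 14098 genes tested). Over all genes tested, 27.4% were called lower and 27.5% higher in this comparison. The median log2 fold change of the 38 genes was -0.50, beside 0.03 over all genes. Among the 28 called genes, only Pfkfb3 had MYC off libraries that overlapped its MYC on libraries. The share of all genes tested without such overlap was not computed. The genes that rose were Hk1, Ldhb, Taldo1, Txnip and Arrdc3.

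The summed level of the 40 genes per transcript length was 17175, 17052 and 15347 TPM, a length-scaled share of all transcripts, in MYC off libraries, against 24564, 23779.7 and 25951 TPM in MYC on libraries. The MYC intermediate libraries, at 17292, 18508 and 18120.3 TPM, lay below every MYC on library and above every MYC off library. In 19 of the 23 genes called lower, MYC off replicate 3 had the lowest level of its group, and in 17 of them MYC on replicate 2 had the lowest of its group. The same shares over all genes tested were not computed, so these counts cannot be set apart from the libraries as a whole. Both libraries were kept.

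**Figure D1:**
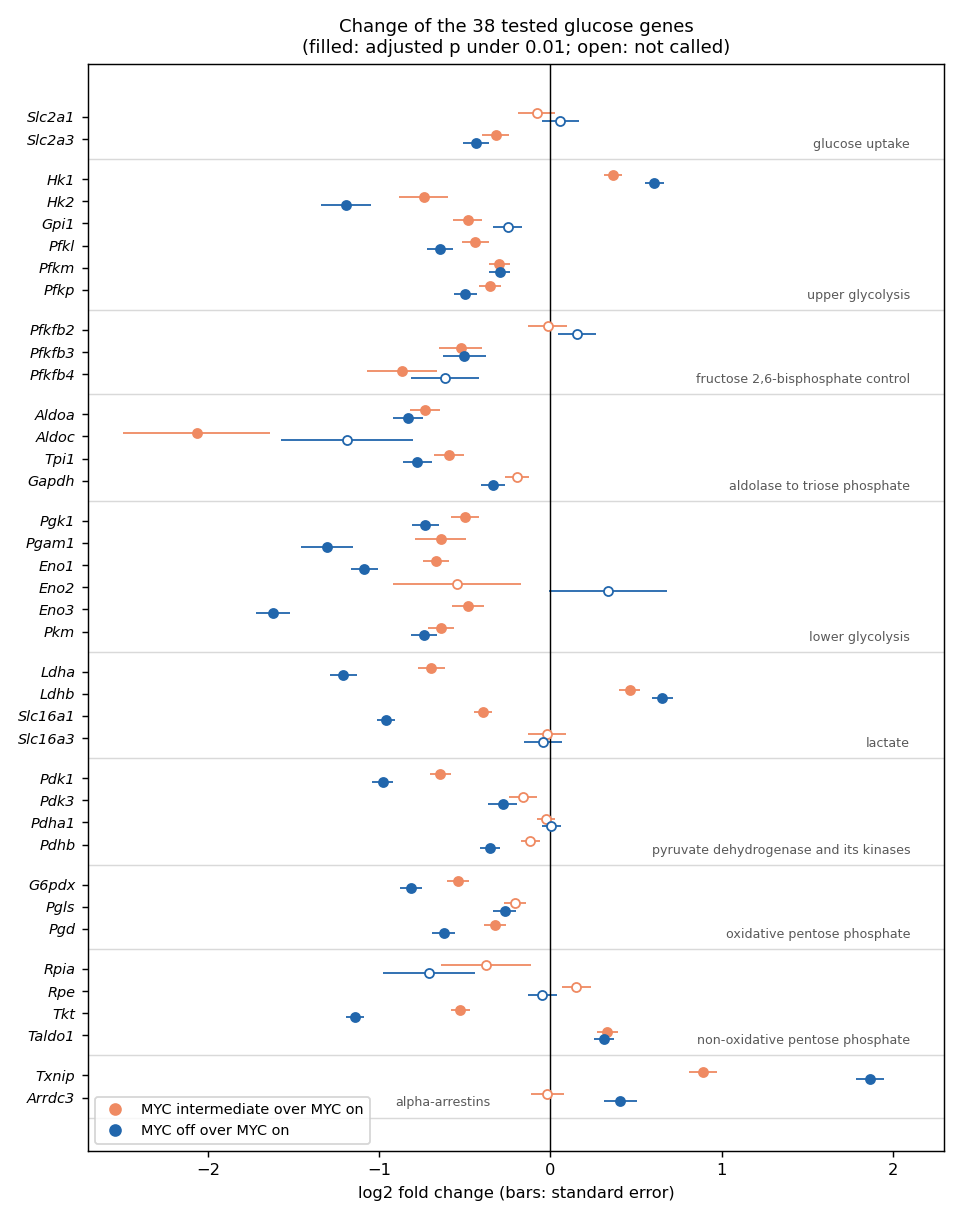
Log2 fold change of the 38 tested genes, ordered by their place in the pathway from top to bottom. Orange points are MYC intermediate over MYC on and blue points MYC off over MYC on, bars are standard errors, and filled points passed an adjusted p of 0.01. Most points lie left of 0; Hk1, Ldhb, Taldo1, Txnip and Arrdc3 are the filled blue points on the right.

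Glucose enters T cells mainly through GLUT1 and GLUT3. Slc2a1, which encodes GLUT1, averaged 81.0 ± 8.09 CPM in MYC off cells and 75.7 ± 10.4 CPM in MYC on cells (SD, n = 3 each), and the groups overlapped. Its log2 fold change of 0.06 did not pass the test (adjusted p = 0.65 in edgeR), with a 95% interval from -0.15 to 0.27. Slc2a3, which encodes GLUT3, fell to 45.3 ± 2.01 CPM in MYC off cells, against 59.7 ± 4.29 CPM in MYC on cells (SD, n = 3 each; log2 fold change -0.43 ± 0.08 SE, edgeR adjusted p = 0.00015). Per length, Slc2a3 made up 21.4% ± 1.09 of the summed TPM of both transporters in MYC off cells and 27.7% ± 1.61 in MYC on cells (SD, n = 3 each). The antisense gene Gm12868 overlaps Slc2a1 and holds 25.3% as many counts. The library kit does not mark strand, so reads of overlapping genes cannot be told apart.

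Hexokinases trap glucose as glucose 6-phosphate, and Hk1 and Hk2 moved in opposite directions. Hk2, the isozyme known for its induction in proliferating and tumor cells, had 10.1, 14.7 and 12.2 CPM in MYC off libraries, against 23.3, 26.6 and 31.9 CPM in MYC on libraries. All MYC off libraries were below all MYC on libraries, a 2.29-fold lower level (log2 fold change -1.19 ± 0.15 SE, edgeR adjusted p = 3.4e-06). Hk1, the broadly expressed isozyme, had 216, 227 and 217 CPM in MYC off libraries, against 140.1, 136 and 147 CPM in MYC on libraries, and rose 1.52-fold. Per length, Hk1 was the more abundant transcript in every library, and Hk2 contributed 6.25%, 8.49% and 7.44% of the summed hexokinase TPM in MYC off libraries, against 19.2%, 21.9% and 23.7% in MYC on libraries. The MYC intermediate libraries lay between, at 9.69% to 12.9%.

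For such shares, the two-sided permutation test used was exact and cannot go below p = 0.1 with 3 libraries against 3. The Hk2 share reached that smallest value in all 3 comparisons, with an adjusted p of 0.166 over the 48 tests of 9 families, and the shares are therefore a description.

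Downstream of hexokinase, the phosphofructokinases Pfkl, Pfkm and Pfkp, which commit sugar to glycolysis, were all called lower in MYC off cells, with log2 fold changes of -0.64, -0.29 and -0.50. Pfkl averaged 359 ± 28.7 CPM in MYC off cells and 548 ± 44.6 CPM in MYC on cells (SD, n = 3 each). Pfkm and Pfkp each overlap a coding gene on the other strand, Senp1 with 408% and Pitrm1 with 51.0% as many counts. Per length, Pfkl held 45.7% ± 1.31 of the family's TPM in MYC off cells and 49.9% ± 1.97 in MYC on cells (SD, n = 3 each), a difference of -4.26 percentage points.

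Gpi1, glucose 6-phosphate isomerase, followed another course. It had 1219, 1099 and 1255 CPM in MYC on libraries, 804, 889.8 and 845 CPM in MYC intermediate libraries and 1077, 1115 and 885 CPM in MYC off libraries. The lowest group was thus the intermediate one, and it overlapped MYC off through MYC off replicate 3. Gpi1 was the only member called against the midpoint of MYC on and MYC off (log2 difference -0.36 ± 0.07 SE, edgeR adjusted p = 0.0098), and 0.184% of all genes were called lower and 1.7% higher in that contrast. The call ended in 7 of the 9 fits that left out 1 library (log2 difference -0.40 to -0.32 in the 7), those without MYC off replicate 3 or without MYC on replicate 2 being the exceptions, and the antisense gene Gm26762 holds 30.4% as many counts as Gpi1. The step from MYC on to MYC off missed the threshold (log2 fold change -0.25, edgeR adjusted p = 0.015). It was called lower in 6 of the 18 alternative settings. These were DESeq2, an adjusted p under 0.05, no count filter, only the 6 libraries compared, and fits without MYC off replicate 1 or MYC on replicate 2.

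The bifunctional PFKFB enzymes make and break fructose 2,6-bisphosphate, the strongest activator of phosphofructokinase. Pfkfb3, the isozyme that favors synthesis, averaged 48.3 ± 9.01 CPM in MYC off cells and 66.5 ± 8.32 CPM in MYC on cells (SD, n = 3 each) and was called lower (log2 fold change -0.50, edgeR adjusted p = 0.0024), although MYC off replicate 2 at 57.7 CPM exceeded MYC on replicate 2 at 56.9 CPM. That call ended when MYC off replicate 3, MYC on replicate 1 or MYC on replicate 3 was left out (log2 fold change -0.45 to -0.37). Pfkfb4 averaged 1.88 ± 0.194 CPM in MYC off cells and 2.82 ± 0.50 CPM in MYC on cells (SD, n = 3 each) and missed the threshold (edgeR adjusted p = 0.013). Pfkfb2 also did not pass (log2 fold change 0.16, 95% interval -0.06 to 0.37), and Yod1 on the other strand holds 257.5% as many counts.

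**Figure D2:**
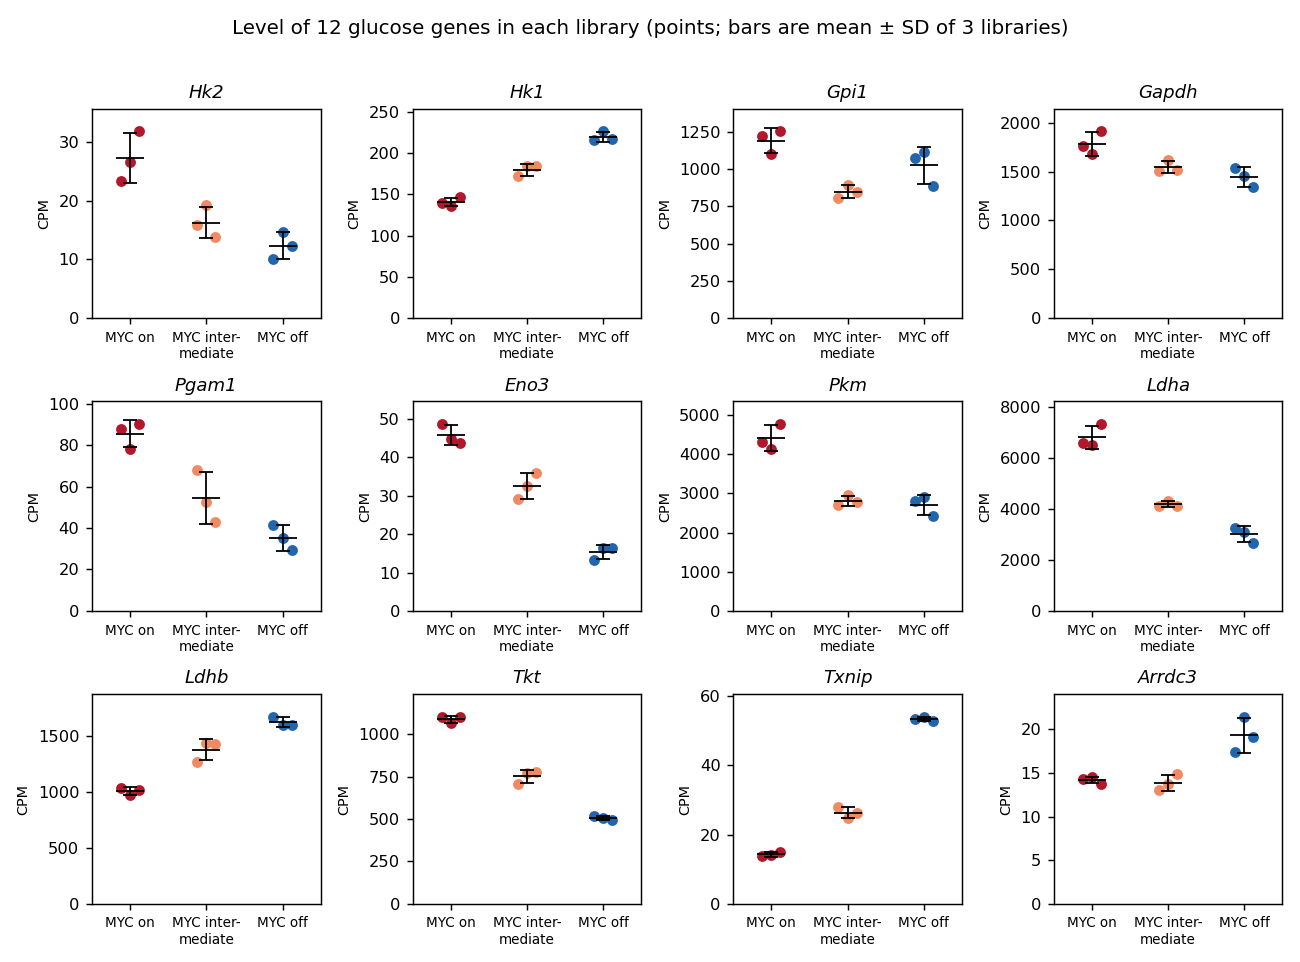
Level of 12 of the genes in each library, in CPM on linear axes that start at 0. Points are the 3 libraries of MYC on, MYC intermediate and MYC off from left to right, and bars give mean ± SD. Hk2, Pgam1, Eno3, Ldha and Tkt step down and Hk1, Ldhb and Txnip step up, while Gpi1 is lowest in MYC intermediate and Arrdc3 is high in MYC off alone.

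The aldolase to triose phosphate segment carried some of the most abundant transcripts. Aldoa, the main aldolase of these cells, averaged 1229 ± 151 CPM in MYC off cells and 2138 ± 163 CPM in MYC on cells (SD, n = 3 each; log2 fold change -0.83, edgeR adjusted p = 5.6e-07). Tpi1, which interconverts the triose phosphates, fell by 0.78 on the log2 scale (edgeR adjusted p = 9.2e-07). Fam57b, on the other strand, overlaps Aldoa with 14.9% as many counts.

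Gapdh, often used as a reference gene, had 1542, 1456 and 1344 CPM in MYC off libraries, against 1759, 1681 and 1917 CPM in MYC on libraries. The groups did not overlap, but the change was among the smaller ones, with a log2 fold change of -0.34 ± 0.07 SE (edgeR adjusted p = 0.00053). Aldoc, a minor aldolase, had 1.62, 1.23 and 1.5 CPM in MYC on libraries, 0.248, 0.37 and 0.418 CPM in MYC intermediate libraries and 0.227, 0.928 and 0.887 CPM in MYC off libraries. Its fall was called for MYC intermediate against MYC on (log2 fold change -2.07 ± 0.43 SE, edgeR adjusted p = 0.0010) and not for MYC off against MYC on (-1.19 ± 0.39 SE, adjusted p = 0.013). With the replicate number as a block, the step from MYC on to MYC off was called as well (-1.23, edgeR adjusted p = 0.0077).

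Of the 6 genes of lower glycolysis, 5 were called lower with MYC off and none higher, beside 27.4% and 27.5% of all genes, and their median log2 fold change was -0.91, beside 0.03 over all genes. Eno3, the enolase known from muscle, changed most among the genes that fell, with 13.2, 16.4 and 16.3 CPM in MYC off libraries, against 48.8, 44.8 and 43.7 CPM in MYC on libraries (3.07-fold lower, log2 fold change -1.62 ± 0.10 SE, adjusted p = 7.7e-10 by edgeR). The MYC off libraries were closely grouped and far below every MYC on library. Eno1, the enolase of most cells, had 1627, 1557 and 1359.5 CPM in MYC off libraries, against 3313, 3037 and 3087 CPM in MYC on libraries. It was 2.12-fold lower with no overlap (log2 fold change -1.09 ± 0.08 SE, edgeR adjusted p = 7.9e-09). Its near-identical copy Eno1b holds 26.2% as many counts, and with the copy's counts added the log2 fold change was -1.08. Eno2, the neuronal enolase, averaged 1.62 ± 0.332 CPM in MYC off cells and 1.27 ± 0.778 CPM in MYC on cells (SD, n = 3 each) and did not pass the test.

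Pgam1, which moves the phosphate of phosphoglycerate, had 41.7, 35.3 and 29.2 CPM in MYC off libraries, against 88.1, 78.2 and 90.3 CPM in MYC on libraries, a 2.47-fold lower level without overlap (log2 fold change -1.30 ± 0.15 SE, edgeR adjusted p = 1.9e-06). Pkm, which encodes the pyruvate kinases M1 and M2 and whose splice forms the gene counts do not separate, had 2807, 2905 and 2412 CPM in MYC off libraries, against 4308, 4136 and 4773 CPM in MYC on libraries. Its log2 fold change was -0.74 ± 0.08 SE (edgeR adjusted p = 4.9e-07). Pgk1, the first ATP-yielding enzyme of the pathway, changed by a similar -0.73 ± 0.08 SE.

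**Figure D3:**
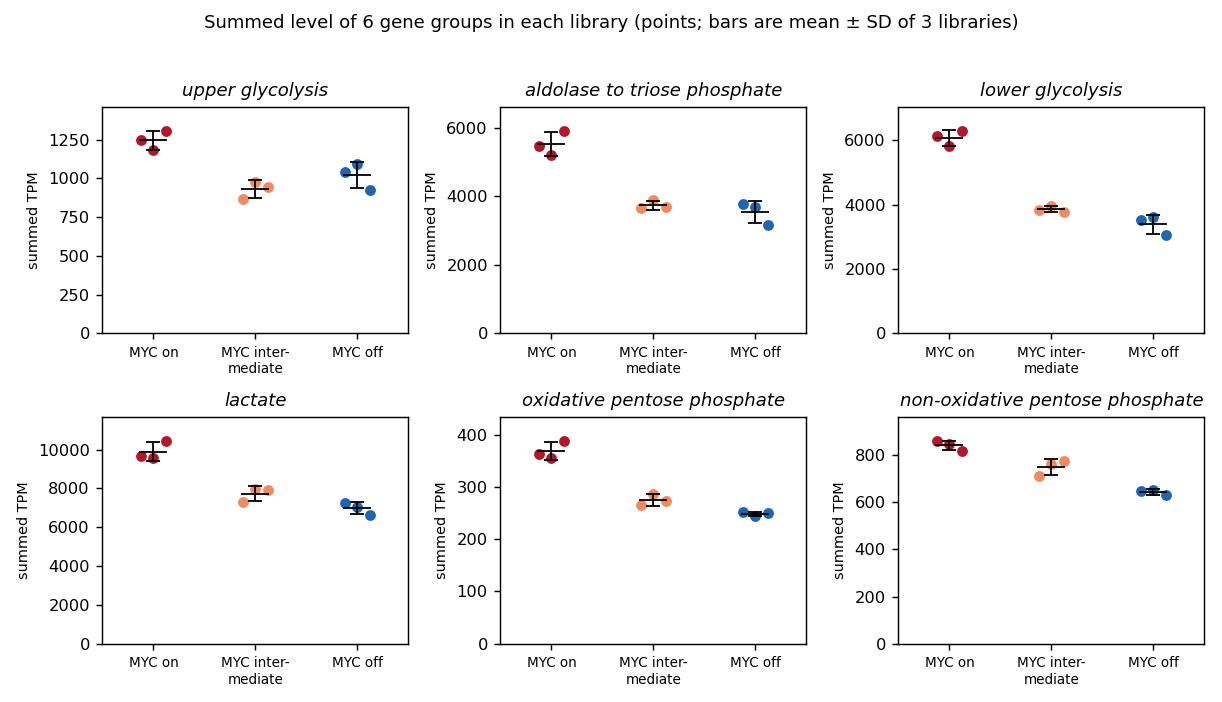
Summed TPM of the genes of 6 pathway segments in each library (points) with mean ± SD of the 3 libraries of MYC on, MYC intermediate and MYC off; the vertical axes start at 0. In all 6 segments the MYC on libraries are the highest, and lower glycolysis averages 6082 TPM in MYC on cells, 3859 TPM in MYC intermediate cells and 3402 TPM in MYC off cells.

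Lactate dehydrogenase showed the clearest exchange of isozymes. Ldha, the subunit that favors making lactate and, by TPM, the most abundant of the 40 transcripts in MYC on cells, had 3258, 3105 and 2666 CPM in MYC off libraries, against 6575, 6494 and 7321 CPM in MYC on libraries (2.31-fold lower, log2 fold change -1.21 ± 0.08 SE, edgeR adjusted p = 1.8e-09). Ldhb, the subunit of tissues that burn lactate, had 1671, 1596 and 1599 CPM in MYC off libraries, against 1035, 972 and 1014 CPM in MYC on libraries (1.57-fold higher, log2 fold change 0.65 ± 0.06 SE, edgeR adjusted p = 1.1e-07). Neither pair of groups overlapped. Per length, the ratio of Ldha to Ldhb was 0.925, 0.923 and 0.791 in MYC off libraries, against 3.01, 3.17 and 3.42 in MYC on libraries. Ldhb therefore passed Ldha in TPM in each MYC off library, and held 52.0% to 55.8% of the family there. This crossing rests on the gene lengths used, 3310 bases for Ldha and 1570 bases for Ldhb. In CPM, Ldha stayed above Ldhb in every MYC off library. In MYC intermediate libraries the ratio was 1.36 to 1.54, between the other groups (exact permutation p = 0.1 in each of the 3 comparisons, the smallest possible).

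The lactate transporters also parted. Slc16a1, which encodes MCT1, fell to 511, 495 and 489 CPM in MYC off libraries, against 944, 957 and 940.2 CPM in MYC on libraries. The libraries of each group lay close together and far from the other group, and the level was 1.95-fold lower (log2 fold change -0.96 ± 0.05 SE, edgeR adjusted p = 3.9e-10). Slc16a3, which encodes MCT4, an exporter of glycolytic cells, had 167 ± 22.7 CPM in MYC off cells and 168 ± 22.6 CPM in MYC on cells (SD, n = 3 each; log2 fold change -0.04, 95% interval -0.26 to 0.17, edgeR adjusted p = 0.75). Its share of the TPM of both transporters was 21.8% ± 2.15 in MYC off cells and 12.9% ± 1.61 in MYC on cells (SD, n = 3 each).

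**Figure D4:**
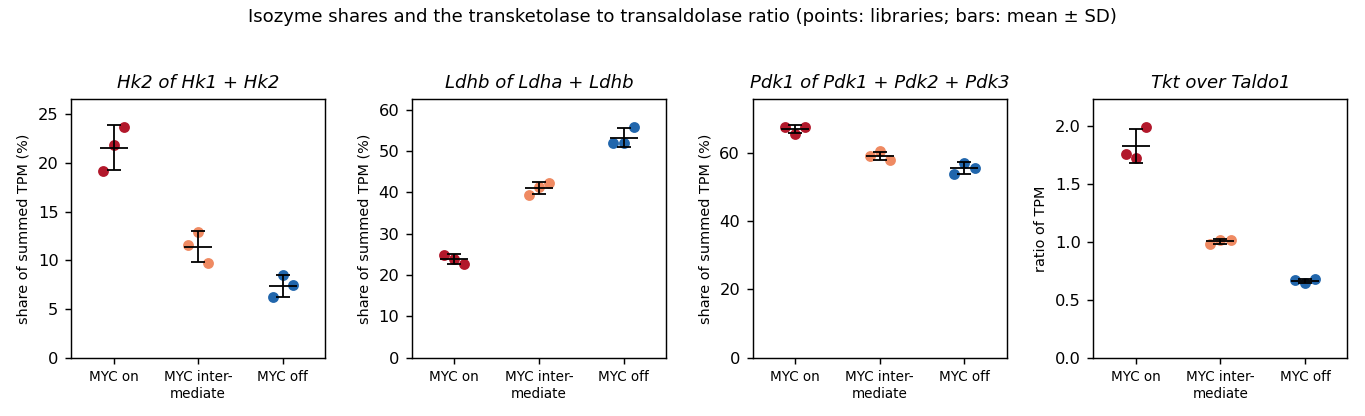
Share of 1 isozyme in the summed TPM of its family for hexokinase, lactate dehydrogenase and pyruvate dehydrogenase kinase, and the ratio of Tkt to Taldo1 TPM, per library (points) with mean ± SD over the 3 libraries of MYC on, MYC intermediate and MYC off; axes start at 0. The 3 groups do not overlap in any panel, and the Ldhb share steps up through 23.8%, 41.0% and 53.3%.

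Pyruvate dehydrogenase carries pyruvate into the mitochondrial citrate cycle, and its kinases shut it off. Pdk1, the main kinase transcript here, averaged 154 ± 12.6 CPM in MYC off cells and 297 ± 1.59 CPM in MYC on cells (SD, n = 3 each; 1.97-fold lower, edgeR adjusted p = 1.4e-09). Pdk3 changed less (log2 fold change -0.28 ± 0.08 SE, edgeR adjusted p = 0.0087), and this call ended with scaling by library size alone and in 6 of the 9 fits without 1 library, those without MYC intermediate replicate 2, MYC off replicate 2 or 3 or any 1 of the MYC on libraries (log2 fold change -0.30 to -0.20 over the 7). Pdk1 held 55.5% ± 1.67 of the kinase TPM in MYC off cells and 66.9% ± 1.13 in MYC on cells (SD, n = 3 each). Of the enzyme's own E1 subunits, Pdhb was lower in MYC off cells (log2 fold change -0.35, edgeR adjusted p = 5.8e-05), whereas the difference of Pdha1 had a 95% interval from -0.10 to 0.11. Map3k15 overlaps Pdha1 on the other strand with 19.8% as many counts.

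All 3 genes of the oxidative pentose phosphate arm were called lower with MYC off, beside 27.4% of all genes. G6pdx, the entry enzyme and source of NADPH, averaged 102 ± 5.29 CPM in MYC off cells and 175 ± 9.17 CPM in MYC on cells (SD, n = 3 each; log2 fold change -0.82, edgeR adjusted p = 2e-08). Pgd, the second NADPH-yielding enzyme, had a log2 fold change of -0.62 and Pgls, the lactonase between them, -0.27. G6pdx overlaps Ikbkg head to head, with 85.7% as many counts, and Pgls overlaps Fam129c with 11.9%. The Pgls call ended without MYC off replicate 2 or MYC on replicate 3 (log2 fold change -0.25 to -0.23).

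The non-oxidative arm split between its transferases. Tkt, transketolase, had 517, 503 and 497 CPM in MYC off libraries, against 1104, 1065 and 1099.9 CPM in MYC on libraries, a lower level with very little spread (log2 fold change -1.14 ± 0.05 SE, edgeR adjusted p = 5.1e-11). Taldo1, transaldolase, averaged 224 ± 7.63 CPM in MYC off cells and 177 ± 12.1 CPM in MYC on cells (SD, n = 3 each) and rose (log2 fold change 0.31 ± 0.06 SE, adjusted p = 0.00024 by edgeR). The ratio of Tkt to Taldo1 in TPM was 0.646 to 0.680 in MYC off libraries, against 1.73 to 2.00 in MYC on libraries. Rpia, ribose 5-phosphate isomerase, was scarce at 1.87 ± 0.219 CPM in MYC off cells and 2.99 ± 0.863 CPM in MYC on cells (SD, n = 3 each; edgeR adjusted p = 0.030), and Rpe did not pass either (log2 fold change -0.05, 95% interval -0.22 to 0.12). Kansl1l overlaps Rpe on the other strand with 223.5% as many counts.

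Txnip was the member that rose most. It encodes an alpha-arrestin that draws GLUT1 off the cell surface and so limits glucose uptake, and it binds thioredoxin. Txnip had 53.3, 54.1 and 52.9 CPM in MYC off libraries, against 13.9, 14.0 and 15.0 CPM in MYC on libraries, a 3.65-fold higher level with groups far apart (log2 fold change 1.87 ± 0.08 SE, adjusted p = 1.7e-11 by edgeR). The MYC intermediate libraries had 27.9, 24.8 and 26.3 CPM and overlapped neither. The antisense gene Gm15441 holds 43.5% as many counts as Txnip, and its part in the result was not tested. Arrdc3 averaged 19.3 ± 2.03 CPM in MYC off cells and 14.2 ± 0.378 CPM in MYC on cells (SD, n = 3 each; log2 fold change 0.41 ± 0.09 SE, edgeR adjusted p = 0.0013). That call ended without MYC off replicate 2, its highest library (log2 fold change 0.34). Arrdc4, with a promoter box but 0 counts, stayed under the limit of 3 counts per library, which is 0.0756 to 0.16 CPM.

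The partial loss of MYC already moved most of these genes. Between MYC intermediate and MYC on, 22 members were called lower and 4 higher, beside 17.2% and 17.4% of all genes, with a median log2 fold change of -0.39 for the 38 genes and 0.01 for all genes. The 4 higher genes were Hk1, Ldhb, Taldo1 and Txnip. Ldha had 4106, 4300.3 and 4104 CPM in MYC intermediate libraries, below all MYC on libraries (log2 fold change -0.69 ± 0.08 SE, edgeR adjusted p = 2.8e-06). Pkm had 2698, 2957 and 2783 CPM in MYC intermediate libraries (log2 fold change -0.64 ± 0.08 SE, edgeR adjusted p = 6.1e-06). Gapdh, at 1506, 1620.3 and 1516 CPM, missed the threshold in this step (edgeR adjusted p = 0.030). Fits without 1 library ended the calls of Slc2a3 (without MYC intermediate replicate 1 or 3 or MYC on replicate 1 or 3), Pfkfb3 (MYC on replicate 1 or 3), Pfkfb4 (MYC intermediate replicate 1 or MYC on replicate 1 or 3) and Pgam1 (MYC intermediate replicate 2 or MYC on replicate 1 or 3), whose log2 fold changes then lay between -0.85 and -0.28.

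The second step, MYC off against MYC intermediate, moved fewer of them. Of the 38 genes, 10 were called lower and 3 higher, beside 14.7% and 9.95% of all genes, and the median log2 fold change was -0.12 over the 38 genes and 0.01 over all genes. The genes called lower were Pgam1, Eno1, Eno3, Ldha, Slc16a1, Pdk1, Pdhb, G6pdx, Pgd and Tkt, and those called higher were Hk1, Txnip and Arrdc3. No glucose transporter, phosphofructokinase, PFKFB gene or gene of the aldolase to triose phosphate segment was called in this step. Some of these genes, and other members not called in this step, were called under an alternative. They were Aldoc, Tpi1 and Pgk1 without MYC off replicate 1, and Pfkl, Tpi1, Pgk1, Gpi1 and Hk2 with no count filter. At an adjusted p under 0.05, Pfkl, Pgk1, Gpi1, Ldhb and Hk2 were called. With scaling by library size alone, Ldhb was called and Pdhb lost its call. Hk2 was also called with DESeq2 and without MYC intermediate replicate 3, and Gpi1 without MYC off replicate 3. Without MYC off replicate 2, the calls were 6 lower and 1 higher, and without MYC off replicate 3 they were 6 lower and 4 higher. The calls that ended without MYC off replicate 2 were those of Hk1, Pgam1, Pdhb, G6pdx, Pgd and Arrdc3, and Pgam1, Pdhb, G6pdx and Pgd also lost theirs without MYC off replicate 3. Leaving out a MYC intermediate library ended the calls of Hk1 (replicate 1), Pgam1 (replicate 1), Pgd (replicate 1 or 2), G6pdx (replicate 2) and Pdhb (replicate 2 or 3).

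By point estimate, single genes placed the intermediate state at different points of the way, and differences between genes were not tested. Expressed as the share of the log2 change from MYC on to MYC off that was present in MYC intermediate cells, Eno3 stood at 29.6%, Slc16a1 at 41.0%, Tkt at 46.1%, Txnip at 47.7% and Ldha at 57.5%. Pkm stood at 86.6%, Aldoa at 88.0%, Pfkm at 101% and Taldo1 at 106%. Eno3 had 29.2, 32.7 and 35.9 CPM in MYC intermediate libraries, and it was lower again in MYC off cells (log2 fold change -1.14 ± 0.10 SE, edgeR adjusted p = 2.6e-07). Tkt, at 708, 771 and 776 CPM in MYC intermediate libraries, was also lower in MYC off cells (log2 fold change -0.62 ± 0.05 SE, edgeR adjusted p = 3.7e-07). Pgam1 had 67.8, 52.6 and 42.9 CPM, Eno1 had 2099, 1983 and 1811 CPM and Hk2 had 15.8, 19.2 and 13.8 CPM in MYC intermediate libraries. The Hk2 step from MYC intermediate to MYC off missed the threshold (log2 fold change -0.45, edgeR adjusted p = 0.026) and passed it with the replicate number as a block. These positions are given without an error and are a description. None of the genes placed here differed from the midpoint at an adjusted p under 0.01. At the looser 0.05, Eno3 lay above the midpoint (log2 difference 0.33, edgeR adjusted p = 0.028). Aldoa (-0.32, edgeR adjusted p = 0.026) and Pkm (-0.27, edgeR adjusted p = 0.029) lay below it.

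Arrdc3, unlike Txnip, was not called at partial MYC, and the difference between the 2 genes was not tested. It had 13.1, 13.7 and 14.9 CPM in MYC intermediate libraries, against 14.3, 14.5 and 13.8 CPM in MYC on libraries (log2 fold change -0.02, 95% interval -0.21 to 0.17), and it was called higher in the second step (log2 fold change 0.43 ± 0.09 SE, edgeR adjusted p = 0.0020). That call also ended without MYC off replicate 2 (log2 fold change 0.35).

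Genes around the pathway were read from lists of related genes, whose counts in MYC off cells against MYC on cells stand beside 27.4% of all genes called lower and 27.5% called higher. The genes named are among the called ones of each list that changed most, in either direction, with at least 5 CPM in 1 group. Of 8 tested further glycolytic enzymes and isozymes, 3 were called lower and 2 higher in MYC off cells than in MYC on cells. Tigar, which breaks down fructose 2,6-bisphosphate, averaged 2.59 ± 0.167 CPM in MYC off cells and 9.28 ± 1.99 CPM in MYC on cells (SD, n = 3 each), and Adpgk, an ADP-dependent glucokinase, had 36.1 ± 3.02 CPM in MYC off cells and 75.4 ± 1.65 CPM in MYC on cells. Ldhd, which acts on D-lactate, rose to 7.10 ± 0.96 CPM in MYC off cells, against 3.14 ± 0.336 CPM in MYC on cells. Of 4 tested further glucose transporters, 3 were called higher and none lower. Slc2a4, the insulin-regulated GLUT4, had 5.32 ± 0.766 CPM in MYC off cells and 2.64 ± 0.102 CPM in MYC on cells. The more abundant Slc2a8 had 28.3 ± 1.10 CPM in MYC off cells and 21.6 ± 2.42 CPM in MYC on cells (log2 fold change 0.34).

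Around pyruvate, 4 of 8 tested genes were called lower and none higher, beside 27.4% and 27.5% of all genes. Dlat, the E2 subunit of pyruvate dehydrogenase, had a log2 fold change of -1.08, Pdp2, a phosphatase that reactivates the complex, -1.24, and Dld, its E3 subunit, -0.48. Of 3 tested further genes of monocarboxylate transport, 2 fell, Slc16a6 (log2 fold change -1.06) and Bsg (-0.41), the chaperone of MCT1 and MCT4.

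Of 12 tested genes of ribose and hexose phosphate metabolism beyond the 40, 5 were called lower and 1 higher, among them Prps1, which makes phosphoribosyl pyrophosphate for nucleotides (log2 fold change -1.02), the phosphoglucomutase gene Pgm1 (-1.35) and Pgm3 (-1.08). Of 9 tested genes of the NADH shuttles, which carry electrons from cytosolic NADH to mitochondria, 5 were called lower and 2 higher, beside 27.4% and 27.5% of all genes. The 2 higher genes, named after their values were seen, were Slc25a11 (log2 fold change 0.41) and Slc25a12 (0.42), carriers of the malate-aspartate shuttle. Got2 and Slc25a13, of the same shuttle, had log2 fold changes of -1.56 and -1.53 and Gpd1l -0.98. Gluconeogenesis and glycogen genes were divided, with 4 lower and 4 higher of 13 tested. Those named among them were G6pc3, a glucose 6-phosphatase (-2.12), Gyg, the glycogenin that primes glycogen (-0.97), and Gbe1, the glycogen branching enzyme (-0.58).

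Of 13 tested genes of MondoA and HIF, of the hydroxylases and VHL that act on HIF and of the other alpha-arrestins, 7 were called higher and 3 lower in MYC off cells, beside 27.5% and 27.4% of all genes. Egln3, a prolyl hydroxylase of HIF, rose by 1.05 on the log2 scale, and Arrdc2 had a log2 fold change of -0.60. Egln1 was called lower at -1.70, but its MYC on libraries were far apart at 70.0, 56.3 and 143 CPM, against 25.2, 31.9 and 29.1 CPM in MYC off libraries. Of 13 tested HIF targets outside glycolysis, 4 were called higher and 4 lower, beside 27.5% and 27.4% of all genes, with a median log2 fold change of 0.00. Egln3 is on this list too and is counted in both. Ak4, a mitochondrial adenylate kinase, had a log2 fold change of -2.11 and Ndrg1 of -0.92. The transcription factor genes Hif1a, Epas1, Mlxip and Mlx lie outside the naming rule and were chosen after their values were seen. Hif1a was called higher (log2 fold change 0.40, edgeR adjusted p = 8.9e-06), as was Epas1 (1.15, adjusted p = 0.0076), which averaged 1.18 CPM in MYC off cells and 0.508 CPM in MYC on cells. Mlxip encodes MondoA and Mlx its partner. Mlxip averaged 22.3 ± 3.07 CPM in MYC off cells and 31.2 ± 2.09 CPM in MYC on cells (SD, n = 3 each; log2 fold change -0.52, edgeR adjusted p = 0.00017), and Mlx had a log2 fold change of 0.26 (edgeR adjusted p = 0.0029).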

How the data were processed

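Polyadenylated RNA was copied with oligo(dT) priming by a kit that does not mark strand. According to the processing notes at GEO, the submitters used cutadapt 1.16 and STAR 2.5.4b with featureCounts on mm10; the annotation release and strand setting are not given in the sources used here. The authors deposited raw counts per gene and TPM values in 1 table for each library. Counts were tested in R 4.3.3 with edgeR 4.0.16 (quasi-likelihood F test, TMM, default count filter, all 9 libraries in 1 fit with group as the term, two-sided, Benjamini-Hochberg over 14098 genes, called under 0.01). Alternatives were DESeq2 1.42.0, other scalings, filters and thresholds, a replicate block, added copy counts and fits without each library. CPM are counts scaled to a common library total. TPM served only for comparisons between genes. The limit for a count of 0 was 3 counts and covers counting error only. Symbols came from GENCODE M21, matched by identifier for 53274 of 53379 genes.

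The members, gene lists and naming rule were chosen with earlier results of these data known. The rule gave values per library for members called with an absolute log2 fold change above 1, for Hk2, Gapdh, Pkm and Ldha and for members called against the midpoint. Of each other list it named up to 3 called genes with the largest change and at least 5 CPM in 1 group. Some further members are given per library as well. Deviations from the group means correlated positively between MYC off and MYC on for all 3 shared replicate numbers (r = 0.38, 0.25 and 0.22 over 9944 genes). Unlike numbers of these 2 groups had r from -0.38 to 0.15. Shared numbers gave 0.13, -0.18 and -0.16 for MYC intermediate with MYC on, and 0.37, 0.03 and 0.08 for MYC off with MYC intermediate. There, unlike numbers reached 0.38 (MYC on replicate 3 with MYC intermediate replicate 2) and 0.26 (MYC intermediate replicate 3 with MYC off replicate 2). Deviations within a group of 3 libraries cancel out, so some pairs correlate under any design. These values therefore cannot establish a pairing. What a replicate number stands for, or whether replicates were separate cultures, is in no label, and the spread behind the p-values may therefore be technical.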

Additional observations from a re-analysis of the deposited data

How the results depend on the processing

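Between MYC off and MYC on, 24 of the 28 called members stayed called in each of the 18 settings, between MYC intermediate and MYC on 22 of 26, and between MYC off and MYC intermediate 7 of 13. No called value changed sign, while 34 values over 12 genes that passed in neither fit did, to at most 0.125 from 0 on the log2 scale under the alternative. Among them, Eno2 had -0.55 for MYC intermediate against MYC on and 0.07 without MYC on replicate 1. In fits without 1 library, the members called lower between MYC off and MYC intermediate numbered 6 to 12 and those called higher 1 to 4; at an adjusted p under 0.05, 5 were higher. Against the midpoint, 0 to 3 members were called lower in fits without 1 library, 3 with DESeq2, 4 at an adjusted p under 0.05 and 4 with no count filter, and 1 was called higher with each of these 3 settings. The cause was not tested, beyond the looser threshold itself. Over all genes, 26 were called lower against the midpoint, against 99 with DESeq2, 138 at an adjusted p under 0.05, 155 with no count filter and 73 with the replicate block, and 240 were called higher, against 389, 584 and 695 with the first 3 of these. In fits without 1 library these counts ran from 6 (MYC intermediate replicate 1) to 64 (MYC off replicate 1) lower and from 113 (MYC intermediate replicate 2) to 322 (MYC off replicate 1) higher. For MYC off against MYC intermediate, 1403 genes were called higher, against 2379 at an adjusted p under 0.05, 852 without MYC off replicate 2 and 926 without MYC off replicate 3. Shares of raw counts kept the order of the groups for Hk2 (16.2% in MYC on, 8.27% in MYC intermediate and 5.29% in MYC off cells) and Ldhb (12.9%, 24.8% and 35.1% in that order), so that Ldhb passed Ldha in MYC off cells per length but not in raw counts. Depth limits Aldoc, Eno2, Pfkfb4 and Rpia most, all under 4 CPM in every library.

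With the replicate number as a block, 24 members were called lower and 5 higher for MYC off against MYC on, 22 and 4 for MYC intermediate against MYC on, and 11 and 3 for MYC off against MYC intermediate. Aldoc was the call gained in the first of these and Hk2 in the last, and no other call of a member changed.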
